A study of Homo sapiens with 12 samples.

Results

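The segment described here is the part of human chromosome 14 next to its centromere, from the first annotated gene up to a gene start below 50000000 (hg38). Gene positions came from RefSeq (GRCh38.p14, the same build), matched by gene symbol. By this rule 560 of the 60483 genes in the deposited count table were members, 0.926% of the table, and the 988 placed genes farther along the chromosome served as background. The segment was picked because many of its genes had lower counts in the very comparison reported first below, so its total RNA fold changes are a description of how it was chosen, and no test is drawn from them.

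The cells were HEK293 Flp-In T-REx, an established human embryonic kidney line with a single recombination site for a doxycycline-inducible cassette. The mut cells produced a catalytic mutant of the exoribonuclease DIS3L2 and the WT cells produced its wild-type form, both recoded and FLAG-tagged at the C terminus. In both, the same cassette expressed sh-miRNAs against endogenous DIS3L2, and both had received 100 ng/ml doxycycline for 3 days, so the controls carried the knockdown and the drug too. Each variant was represented by 3 rRNA-depleted, strand-specific total RNA libraries and 3 size-selected small RNA libraries. The labels call these replicates, and neither separate cultures nor the number of independent lines per variant is stated, so that any p-value measures the spread between these libraries only and a difference between variants cannot be told apart from one between lines.

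DIS3L2 degrades RNA from the 3' end and prefers RNAs with a uridine tail, among them short structured transcripts of RNA polymerase III. Chromosome 14 is acrocentric: its short arm holds ribosomal DNA, and gene-rich DNA starts on the long arm. From the centromere outwards, the segment holds olfactory receptor genes, the RNase A family with a tRNA gene cluster, and the T cell receptor alpha and delta locus. After these come the proteasome activator genes, the homeobox gene NKX2-1, the paired box gene PAX9 and the forkhead gene FOXA1. Last are the genes of 7SL RNA, the RNA scaffold of the signal recognition particle.

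Promoter sequences are shown for 5 protein-coding genes with unlike values in the segment: CEBPE, G2E3 and MIPOL1, which had lower counts in mut cells, and RPS29 and MGAT2, which did not and lie at its distal end. Each is the RefSeq (GRCh38.p14) stretch from 250 bases before to 50 bases after the gene's start, read 5' to 3' on the gene's own strand. Capitals mark matches, on either strand, to the TATA box TATAAA, the CCAAT box CCAAT, the GC box GGGCGG and the ETS-type motif CCGGAAG, which do not overlap one another here.
CEBPE, chr14:23119206-23119505, minus strand: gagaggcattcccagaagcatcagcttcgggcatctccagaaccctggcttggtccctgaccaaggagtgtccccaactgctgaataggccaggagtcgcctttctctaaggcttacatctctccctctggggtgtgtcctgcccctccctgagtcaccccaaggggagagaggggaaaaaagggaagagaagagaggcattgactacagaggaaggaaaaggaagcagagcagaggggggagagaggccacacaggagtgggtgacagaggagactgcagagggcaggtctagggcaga
G2E3, chr14:30558908-30559207, plus strand: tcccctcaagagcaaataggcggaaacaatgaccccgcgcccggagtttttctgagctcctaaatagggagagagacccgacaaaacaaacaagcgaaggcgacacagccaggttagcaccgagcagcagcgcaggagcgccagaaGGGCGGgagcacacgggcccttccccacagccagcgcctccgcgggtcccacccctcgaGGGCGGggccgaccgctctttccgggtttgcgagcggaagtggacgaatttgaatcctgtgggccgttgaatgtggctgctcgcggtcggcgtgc
MIPOL1, chr14:37197687-37197986, plus strand: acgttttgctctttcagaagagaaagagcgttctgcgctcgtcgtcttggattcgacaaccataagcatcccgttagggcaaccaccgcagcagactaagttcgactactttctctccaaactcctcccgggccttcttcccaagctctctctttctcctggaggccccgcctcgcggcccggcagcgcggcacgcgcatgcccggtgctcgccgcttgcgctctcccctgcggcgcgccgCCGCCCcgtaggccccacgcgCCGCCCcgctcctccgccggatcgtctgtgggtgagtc
RPS29, chr14:49598661-49598960, minus strand: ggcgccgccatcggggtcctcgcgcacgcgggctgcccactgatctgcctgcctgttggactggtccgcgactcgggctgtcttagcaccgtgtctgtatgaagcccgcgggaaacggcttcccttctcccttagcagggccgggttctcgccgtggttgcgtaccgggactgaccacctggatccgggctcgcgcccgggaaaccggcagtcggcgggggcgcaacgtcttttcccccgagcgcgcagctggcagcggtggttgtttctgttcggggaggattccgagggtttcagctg
MGAT2, chr14:49620549-49620848, plus strand: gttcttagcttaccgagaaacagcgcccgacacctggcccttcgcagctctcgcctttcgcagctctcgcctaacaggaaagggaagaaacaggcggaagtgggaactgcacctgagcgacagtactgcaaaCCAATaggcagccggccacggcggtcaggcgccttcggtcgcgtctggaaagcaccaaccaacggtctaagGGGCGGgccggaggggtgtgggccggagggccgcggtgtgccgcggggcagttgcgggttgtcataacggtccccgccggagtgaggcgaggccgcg

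The CEBPE window had 2 CpG dinucleotides, against 28 in G2E3, 35 in MIPOL1, 34 in RPS29 and 31 in MGAT2. G2E3 and MIPOL1 each held 2 GC boxes, MGAT2 held 1 GC box and 1 CCAAT box, and CEBPE and RPS29 held no match to these letters. Over the 118 members that were tested and had a promoter entry, 63.6% held a GC box, 40.7% a CCAAT box, 15.3% the ETS-type motif and 7.63% a TATA box. Over all 35116 promoters of the RefSeq table the shares were 45%, 34.6%, 10.3% and 11.5% in the same order. The median number of CpG dinucleotides was 20 in the tested members and 14 over all promoters. The tested members had passed a filter on low counts and the full set of promoters had not. These gaps therefore cannot be read as a trait of the segment. A match is a run of letters and not evidence that a factor binds there.

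Total counts in genes were 8467957 to 9009114 in the mut and 8315986 to 12675042 in the WT total RNA libraries. The DIS3L2 gene had 1144, 1040 and 1091 CPM (counts scaled to library depth by TMM) in mut libraries, against 763, 813 and 777 CPM in WT libraries, a log2 fold change of 0.48 ± 0.05 (SE); the counts do not separate the recoded from the endogenous transcript. Of the markers of HEK293 cells that were listed (neurofilament, vimentin and renal genes), the summed level was 1632 to 1729 CPM in mut and 1389 to 1485 CPM in WT libraries, with 3 of 4 tested genes higher and 1 lower in mut cells. The 5 epithelial markers were all higher in mut libraries, summing to 468 to 500 CPM, against 366 to 411 CPM in WT libraries. The 6 fibroblast markers summed to 4.48 to 6.92 CPM in mut and 2.69 to 3.60 CPM in WT libraries, with 2 of 3 tested genes higher and 2 listed at 0 in every library. The 7 blood cell markers were at most 0.705 CPM in sum in mut and 0.737 CPM in WT libraries, with 3 at 0 throughout and none passing the filter. The part of these marker differences in the results below was not tested.

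Most genes of the segment had few or no counted reads. Of its 560 genes, 295 were at 0 in all 6 total RNA gene counts, which does not show that they are not transcribed, since reads with several possible origins were set aside. Another 118 had some reads but too few to test, and 147 passed the filter on low counts. The tested members were mostly protein-coding: 128 of 211 protein-coding members were tested, and 19 of the 349 others. The 24 olfactory receptor genes, which encode odorant receptors of the nasal epithelium, had 1 read in mut and 1 read in WT libraries in all, and 22 were at 0 in every library. The 13 genes of the RNase A superfamily, secreted ribonucleases with roles in blood vessel growth and host defence, had 9 reads in mut and 7 in WT libraries, and 9 of them had none. The 126 segments of the T cell receptor alpha and delta locus, which only T cells join into working genes, had 8 reads in mut and 20 in WT libraries, and 111 had none. None of these 3 groups had a tested member, so they bear on no count below.

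The tested genes had lower counts in mut cells as a group. The median log2 fold change over the 147 tested members was -0.32 (interquartile range -0.53 to -0.13), a ratio of 0.801, and 122 of them were below 0. With edgeR's quasi-likelihood test and a Benjamini-Hochberg adjusted p under 0.05 over all 14409 tested genes, 79 members were called lower and 8 higher in mut cells, where 14.2% of all tested genes were called lower and 13.0% higher. DESeq2 called 62 members lower and 6 higher, where it called 8.82% of all genes lower and 8.47% higher. Nothing is read from these counts, since the segment was chosen on them. In 89 members all 3 mut libraries lay below all 3 WT libraries, in 11 they lay above, and in 47 the groups overlapped, where 21.2% of all tested genes lay below and 19.4% above. Fewer cells with a gene's RNA and less of it per cell cannot be told apart in such bulk libraries.

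The 307 tested genes of the rest of the chromosome had a median log2 fold change of -0.07, with 60 called lower and 13 higher. The median over all tested genes was -0.01. The split between the segment and the rest is a line set by the rule and not a step in the data: lower counts also lay beyond it. In the window from 50 to 55 Mb the median was -0.08 with 6 of 32 tested genes called lower. From 55 to 60 Mb it was -0.28 with 14 of 27 called lower, and from 60 to 65 Mb it was -0.31 with 14 of 26 called lower. The genes nearest the limit on the inside were RN7SL3, RN7SL2 and ARF6, with log2 fold changes of 0.04, 0.68 and -0.14. On the outside, VCPKMT and SOS2 lay nearest, with -0.16 and -0.26.

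**Figure D1:**
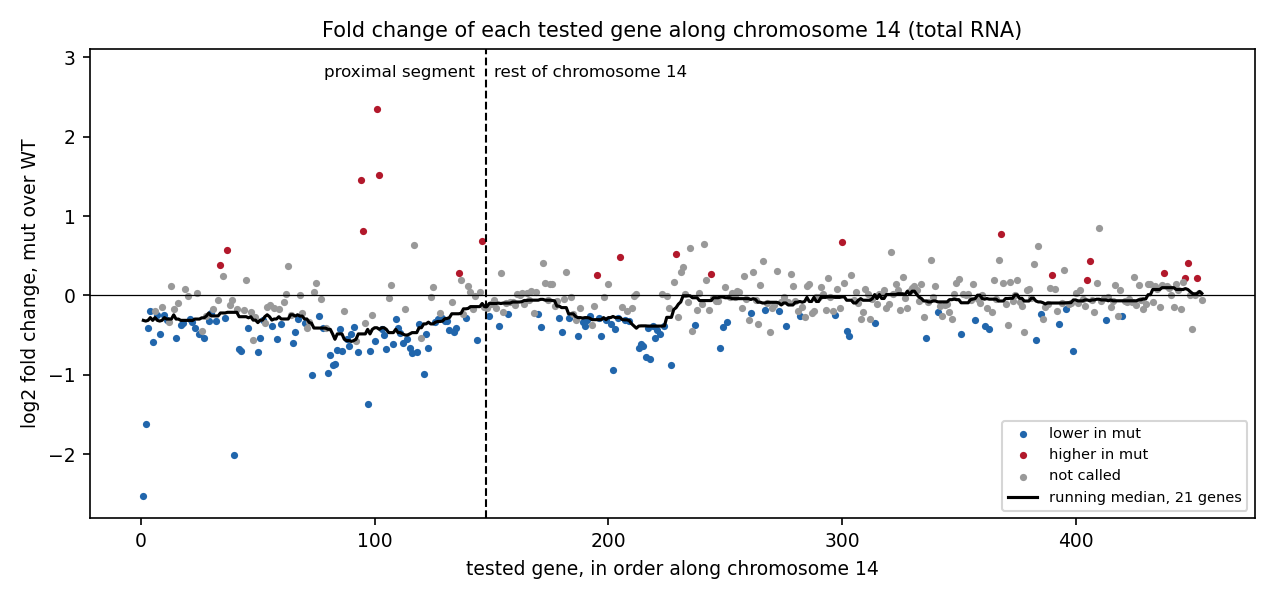
Log2 fold change in total RNA, mut over WT, of each of the 454 tested genes placed on chromosome 14, in their order along the chromosome (x axis, rank; dashed line, the end of the segment after 147 genes). Blue points were called lower in mut cells, red points higher and grey points neither, and the black line is the running median of 21 genes. The line stays below 0 through most of the segment, comes near 0 at its end and dips again in the part of the chromosome that follows.

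For every tested member the level in a library was set against the mean of the WT libraries, and the median log2 ratio over members was -0.32, -0.36 and -0.31 in the 3 mut libraries, against 0.00, 0.00 and -0.01 in the WT libraries. These values describe the libraries on which the segment was chosen. Over the rest of the chromosome the same median was -0.09, -0.04 and -0.05 in mut libraries, against 0.01, -0.02 and 0.01 in WT libraries. All 560 members, tested or not, made up 0.671 ± 0.008% of all reads counted in genes in mut cells (SD, n = 3). In WT cells the members made up 0.828 ± 0.015% (SD, n = 3). The 988 other placed genes of the chromosome, tested or not, made up 1.47 ± 0.046% in mut and 1.57 ± 0.020% in WT cells.

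The lower level was not even along the segment. Cut wherever more than 2 Mb held no tested gene, the segment fell into 4 blocks. The first, from DUXAP9 to NOVA1, had 80 tested genes with a median log2 fold change of -0.29, 39 called lower and 2 higher, where 14.2% of all tested genes were called lower and 13.0% higher. The second, which ends at FBXO33 and holds G2E3, MIPOL1 and PAX9, had 49 tested genes and a median of -0.48, with 33 called lower and 4 higher. It holds long genes set far apart, and its median gene span was 38.5 kb, against 10.7 kb in the first block.

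The next block, which starts at KLHL28 and holds FANCM, had 6 tested genes and a median of -0.37, and 5 were called lower. The last, RPS29 to ARF6, is where the segment ends and had 12 tested genes with a median of 0.02, 2 called lower and 2 higher, shares near those over all tested genes. In the first 3 blocks the medians of the mut libraries lay below those of all WT libraries, and in the last they overlapped, at 0.04, 0.01 and 0.00 in mut against 0.01, 0.04 and -0.04 in WT libraries. In the second block they were -0.50, -0.41 and -0.47 in mut and 0.04, -0.05 and 0.01 in WT libraries.

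**Figure D2:**
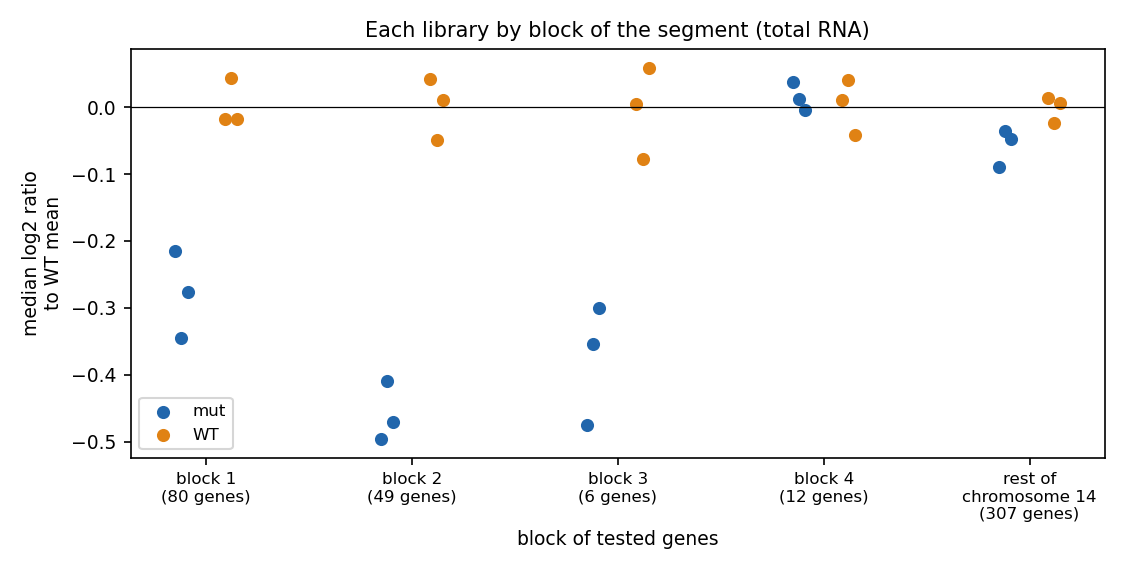
Median, over the tested genes of each of the 4 blocks, in order from the centromere, and of the rest of chromosome 14 (x axis), of the log2 ratio of a library's level to the WT mean (y axis), with 1 point per total RNA library, mut in blue and WT in orange. The mut points lie below the WT points in the first 3 blocks and among them in the block from RPS29 to ARF6.

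Across the 147 members, the fold change and the length of the gene on the genome went in opposite directions, with a Spearman correlation of -0.34. The same correlation was -0.29 over the 307 genes of the rest of the chromosome and -0.23 over all 13420 placed genes, so the direction was the same over all placed genes. The points share the same 6 libraries, and the values are a description. The median span of members, 15.7 kb, was shorter than that of all placed genes, 30.0 kb.

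Single genes ranged widely around the median. CEBPE, a transcription factor of granulocyte maturation (hg38 chr14, bases 23117306 to 23119255, minus strand), had the lowest log2 fold change of the protein-coding members that were called. Its level was 17.0, 15 and 18.4 CPM in mut libraries, against 70.8, 62.9 and 70.4 CPM in WT libraries, a log2 fold change of -2.01 ± 0.09 (SE). The groups lay far apart, with every mut library well below every WT library. Its CpG-poor promoter is the first one printed above.

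MIPOL1, a coiled-coil protein gene of 354425 bp between NKX2-1 and FOXA1, had 28, 34.2 and 33.7 CPM in mut libraries, against 64.3, 60.9 and 65.7 CPM in WT libraries. The log2 fold change was -0.99 ± 0.08 (SE), close to a halving in every mut library. G2E3, an E3 ubiquitin ligase, had 47.6, 57.0 and 56.4 CPM in mut libraries, against 102, 88.5 and 103 CPM in WT libraries. ARHGAP5, a GTPase-activating protein, had 222, 269 and 251 CPM in mut libraries, against 418, 369 and 428 CPM in WT libraries. For G2E3 the log2 fold change was -0.86 ± 0.08 and for ARHGAP5 -0.71 ± 0.07 (SE), and the libraries of mut and WT did not overlap in either gene.

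Other genes among the 10 lowest called protein-coding members encode regulators of development and signalling. LTB4R, the receptor of leukotriene B4, had a log2 fold change of -0.998, NOVA1, a neuronal splicing factor, -0.98 and PRKD1, protein kinase D1, -0.87. MBIP, a subunit of the ATAC acetyltransferase complex, had -0.72. NPAS3, a basic helix-loop-helix factor of the brain, had -1.37 ± 0.40 (SE) from only 4, 8 and 3 reads in mut libraries, against 13, 19 and 14 reads in WT libraries. In these 5 genes the mut libraries lay below all WT libraries, and the call of NPAS3 was lost without mut replicate 1 or 3.

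Few members were higher. Among protein-coding genes 3 were called higher, all with modest fold changes. CDH24, a type II cadherin, had 12.2, 10.3 and 14.1 CPM in mut libraries, against 8.79, 7.91 and 7.99 CPM in WT libraries, a log2 fold change of 0.57 ± 0.14 (SE). AJUBA, a LIM-domain adaptor at cell junctions, had 17.8, 17.0 and 14 CPM in mut libraries, against 13.2, 13 and 10.7 CPM in WT libraries, a log2 fold change of 0.39 ± 0.12. RPS29, a protein of the small ribosomal subunit, had 338, 312 and 291 CPM in mut libraries, against 255, 273 and 248 CPM in WT libraries, a log2 fold change of 0.28 ± 0.06. In each of the 3 genes the mut libraries lay above all WT libraries, and RPS29 starts the last block of the segment. The call of AJUBA was lost in DESeq2 and without mut replicate 1 or WT replicate 3. Next in order among called genes were CCNB1IP1, a ubiquitin ligase of meiotic crossing over, and the RNA-binding protein gene RBM23, lower at -0.19 and -0.22.

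The 10 members with the most reads were mostly lower. SUPT16H, CHD8, COCH, PRMT5, PNP and ARHGAP5 had log2 fold changes between -0.71 and -0.24 with no overlap of the groups. COCH, which encodes cochlin of the inner ear matrix, had 198, 198 and 191 CPM in mut libraries, against 268, 265 and 256 CPM in WT libraries. HNRNPC, which binds uridine tracts of nascent RNA, had 1080, 986 and 968 CPM in mut libraries, against 1096, 1074 and 1070 CPM in WT libraries. SEC23A, a subunit of the COPII coat, had 154, 170 and 162 CPM in mut libraries, against 176, 154 and 161 CPM in WT libraries. The groups overlapped in both genes, whose log2 fold changes were -0.09 and -0.01, so neighbours of lower genes did not all share their level.

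**Figure D3:**
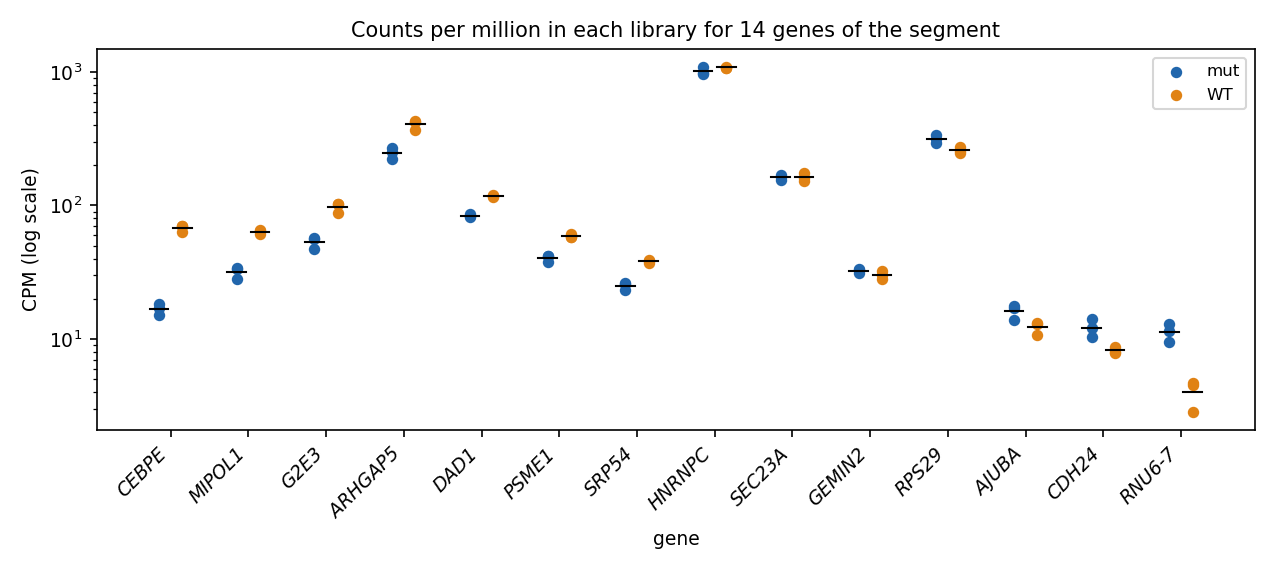
CPM, counts scaled to library depth (y axis, log scale) of 14 genes of the segment, with 1 point per total RNA library, mut in blue left of WT in orange, and a bar at the mean of each group. The 7 genes on the left lie lower in mut libraries, HNRNPC, SEC23A and GEMIN2 overlap, and RPS29, AJUBA, CDH24 and RNU6-7 lie higher.

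By their roles, members of every list with tested genes had a median below 0. Genes of DNA repair, telomeres and chromatin had 13 of 15 tested members called lower and none higher, with a median log2 fold change of -0.40. In the segment as a whole 53.7% of tested members were called lower, against 14.2% of all tested genes, so these counts by role are set beside the segment's own share and show nothing particular to a role. APEX1, the main abasic site endonuclease, had -0.49, PARP2, which responds to strand breaks, -0.58, FANCM, a DNA translocase of the Fanconi pathway, -0.46, and BAZ1A, a subunit of chromatin remodelling complexes, -0.67. This list also held NEMF, a factor of ribosome quality control, at -0.56. TEP1 and POLE2 were not called, at -0.19 and -0.17.

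Genes of RNA binding, modification and processing had 9 of 14 tested members called lower and 1 higher, with a median of -0.28. METTL3, the catalytic subunit of the m6A writer, had -0.41, PRPF39, a splicing factor, -0.43, and SRP54, the GTPase of the signal recognition particle, -0.61. The member called higher was RN7SL2, a gene of 7SL RNA. Of the 4 tested ribosomal protein and translation genes 2 were called lower and 1, RPS29, higher.

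Genes of the proteasome and of ubiquitin had 8 of 12 tested members called lower and 1, AJUBA, higher, with a median of -0.30. PSME1 and PSME2, the subunits of the interferon-inducible PA28 activator, had -0.55 and -0.36, and NEDD8, the ubiquitin-like modifier of cullins, -0.60. Membrane traffic genes had 6 of 14 called lower and none higher, with a median of -0.28. STRN3, a striatin of the PP2A phosphatase, had -0.70, SCFD1, a Sec1-family protein between the endoplasmic reticulum and the Golgi, -0.69, and HEATR5A, a protein of endosomal transport, -0.63.

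The list of transcription factors had 7 of 15 tested members called lower and none higher, with a median of -0.48. PAX9, a paired box factor of tooth and pharyngeal pouch development, had -0.71 and FOXA1, a pioneer forkhead factor, -0.48. Of those called, BCL2L2, an inhibitor of apoptosis, at -0.70, and MBIP are not DNA-binding factors. NKX2-1, a factor of lung and thyroid that lies beside PAX9, had 0.63 ± 0.25 (SE) and was not called, except at 0.81 without mut replicate 2.

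Signalling genes had 6 of 11 called lower and none higher, with a median of -0.41. EGLN3, a prolyl hydroxylase of the hypoxia pathway, had -0.70, and RALGAPA1, a GTPase-activating protein for Ral, -0.55. Genes listed under adhesion and neuronal roles had 5 of 9 called lower and 1, CDH24, higher, with a median of -0.32. Of the lower ones, DAD1 is a subunit of the oligosaccharyltransferase, OXA1L inserts proteins into the inner mitochondrial membrane and NUBPL assembles complex I, at -0.49, -0.54 and -0.39. These therefore describe other roles than the name of the list.

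**Figure D4:**
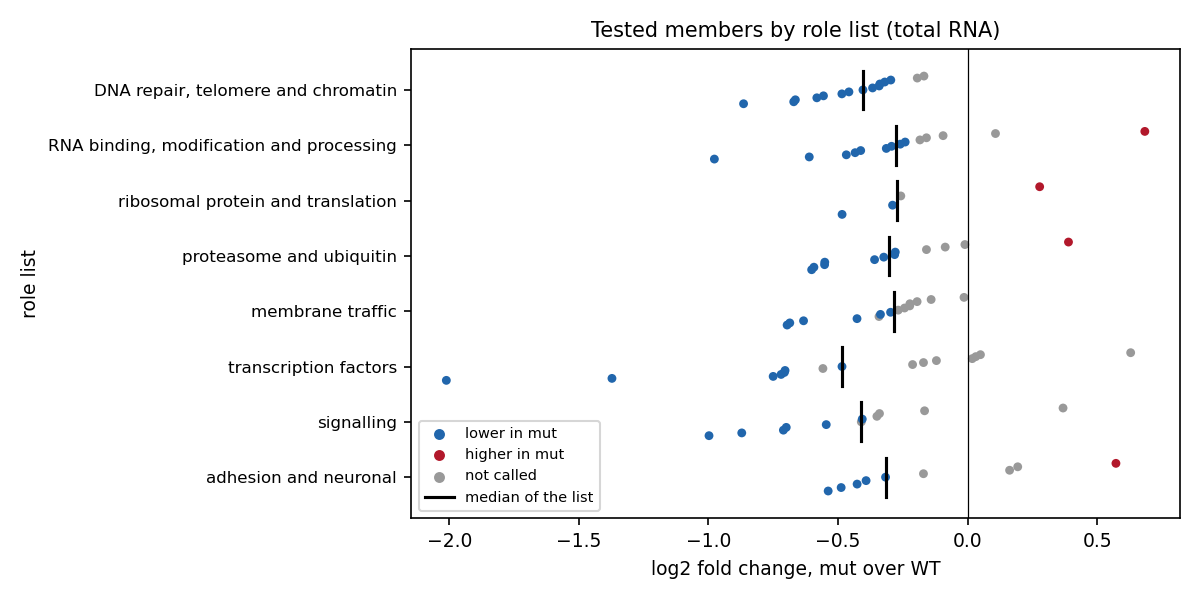
Log2 fold change in total RNA, mut over WT (x axis), of every tested member in 8 lists of roles (rows), with a black bar at the median of the list. Blue points were called lower in mut cells, red points higher and grey points neither. The medians of all 8 lists lie between -0.48 and -0.27.

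Many members encode a subunit of a complex whose other subunits are encoded elsewhere, and these could be set side by side. In 16 such complexes or families, 14 of the 18 members of the segment were called lower and none higher, with a median log2 fold change of -0.36. Of their 74 partner genes outside the segment, 8 were called lower and 9 higher, with a median of 0.01. In the segment as a whole 53.7% of tested members were called lower. Over all tested genes 14.2% were called lower and 13.0% higher, near the partners' 10.8% and 12.2%. The segment was chosen on its low counts in this comparison, so nothing is read from the gap between members and partners. SUPT16H had 272, 303 and 315 CPM in mut libraries, against 393, 368 and 386 CPM in WT libraries, a log2 fold change of -0.37. Its only partner in the histone chaperone FACT, SSRP1 on chromosome 11, averaged 427 ± 10.1 CPM in mut and 403 ± 20.9 CPM in WT cells (SD, n = 3 each), a log2 fold change of 0.08.

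In the proteasome, PSMA6 and PSMB5 had -0.59 and -0.28, while PSMA4 on chromosome 15 was called higher at 0.43. PSMA3, which lies outside the segment on the same chromosome (hg38 chr14, bases 58244843 to 58272004), was called higher at 0.26. The other partners of PSMA6 and PSMB5 were not called, with values from -0.26 in PSMA1 to 0.13 in PSMB7. PSME3, which forms its own activator ring and lies on chromosome 17, had 0.05 ± 0.06 (SE), against the -0.55 of PSME1. DAD1 had 87.0, 83.1 and 81.8 CPM in mut libraries, against 118, 119 and 115 CPM in WT libraries. Its partners STT3A and RPN1 were called higher, at 0.33 and 0.23, and the remaining 7 subunits tested were not called.

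Some partners moved the same way as the member. In the m6A writer CBLL1 was called lower at -0.29 beside METTL3. In mitochondrial RNase P the nuclease PRORP had -0.47 and TRMT10C, the methyltransferase subunit on chromosome 3, -0.35. Of the telomere complex shelterin, TINF2 had -0.30 and POT1, which binds single-stranded telomeric DNA and lies on chromosome 7, -0.37. Among the SRP proteins SRP54 had -0.61, SRP14 on chromosome 15 had -0.19 and was called lower, and SRP9, which pairs with SRP14 on 7SL RNA, had 0.46 and was called higher. The 4 members of the segment that were not called were GEMIN2, SEC23A, POLE2 and RNF31, with values from -0.17 to 0.11.

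Genes that start close together in opposite directions were compared as pairs, named here after their values were known. In 13 pairs of tested members the starts lay within 1000 bp, and in 5 pairs both genes were called lower, in 6 pairs 1 gene and in 2 pairs neither. In the segment as a whole 53.7% of tested members were called lower, against 14.2% of all tested genes. Whether the genes of a pair go together more than other members was not tested. Both were lower in NEDD8 and GMPR2, at -0.60 and -0.46, and in FOXA1 and TTC6, at -0.48 and -0.67. The other 3 such pairs were RAB2B and TOX4, KLHL28 and TOGARAM1, and OSGEP and APEX1, and the calls of RAB2B, KLHL28 and OSGEP were lost in DESeq2 and with some libraries left out. PSME2 had -0.36 and its neighbour RNF31, a ubiquitin ligase subunit 265 bp away, -0.09. In the last block RPS29 and LRR1, whose starts both lie in the RPS29 promoter window printed above, had 0.28 and 0.20, and only RPS29 was called.

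The MGAT2 window printed above also contains the start of RPL36AL, 173 bp from that of MGAT2. RPL36AL, a ribosomal protein gene, had 56.8, 51.6 and 55.5 CPM in mut libraries, against 67.7, 64.4 and 68.6 CPM in WT libraries, a log2 fold change of -0.29. MGAT2, an N-glycan branching enzyme of the Golgi, had 85.2, 81.5 and 80.7 CPM in mut libraries, against 75.5, 76.8 and 74.7 CPM in WT libraries, a log2 fold change of 0.12 ± 0.07 (SE) that was not called. The mut libraries lay below WT for the first gene and above WT for the second, across a single shared window of 300 bases.

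The tested noncoding members fell into unlike classes, and the difference between them was not tested. Of the 19 tested members that do not encode proteins, 5 were called lower and 5 higher, where 14.2% of all tested genes were called lower and 13.0% higher. Of the 8 tested lncRNAs 7 were below 0, with a median log2 fold change of -0.42, 3 called lower and none higher, and the median over the 128 protein-coding members was -0.33. The lncRNAs called lower were LINC00641 at -0.54, AP1G2-AS1 at -0.71 and DHRS4-AS1 at -0.31, and antisense values are uncertain without the strand setting of the counting. These genes, the pseudogenes and the snRNA genes were named after their values were seen. DUXAP9, a transcribed pseudogene next to the centromere, had 5, 8 and 4 reads in mut libraries, against 41, 41 and 34 reads in WT libraries, and its near copy DUXAP10 had 12, 18 and 11 reads, against 45, 71 and 33 reads. Their log2 fold changes were -2.53 ± 0.32 and -1.62 ± 0.25 (SE), and reads can be split wrongly between such copies.

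The short noncoding genes of RNA polymerase III and II that passed the filter were higher in mut cells or not called. RNU6-7, a gene of the U6 spliceosomal RNA, had 9.49, 13 and 11.5 CPM in mut libraries, against 4.55, 4.70 and 2.83 CPM in WT libraries, a log2 fold change of 1.45 ± 0.17 (SE). RNU6-8, an identical or near-identical copy of U6 about 1 kb away, had 0.81 ± 0.21, and its call was lost in DESeq2 and with the trend on gene span removed. The U1 pseudogenes RNU1-27P and RNU1-28P had 2.35 ± 0.41 and 1.51 ± 0.37, the first from 42, 61 and 12 reads in mut libraries, against 10, 9 and 7 reads in WT libraries. All 4 lay above WT in every mut library, in the middle of the block with the lowest median.

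RN7SL2 had 82.1, 107 and 79.6 CPM in mut libraries, against 55.7, 63.0 and 46.9 CPM in WT libraries, a log2 fold change of 0.68 ± 0.10 (SE). RN7SL3, its near-identical neighbour, had 112, 102 and 110 CPM in mut libraries, against 105, 109 and 100 CPM in WT libraries, a log2 fold change of 0.04 ± 0.06 with overlapping groups. RN7SL1, the remaining 7SL gene of the segment, and RPPH1, the RNA of nuclear RNase P, were listed at 0 in every total RNA library, although the small RNA libraries below hold fragments at both. Reads that align in more than 1 place were set aside in the deposited counts, so the values of these copies are uncertain. SNORD8 and SNORD9, C/D box snoRNAs in introns of CHD8, had -0.01 ± 0.23 and 0.08 ± 0.36 (SE) and were not called. Their host gene had -0.34. With SNORD9 at 6 to 19 reads per library and errors of this size, the counts cannot show whether the snoRNAs depart from their host.

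The small RNA libraries took no part in the choice of the segment. They held 198 annotated features of the segment, 173 of them without a fragment in any of the 6 libraries, and 16 passed the filter. With edgeR's quasi-likelihood test 0 of the 16 had an adjusted p under 0.05, where 0.179% of the 559 annotated features tested were called. At an unadjusted p under 0.05 there was 1, limma called 0, and the smallest adjusted p was 0.58. Of the 16 features 14 had a log2 fold change below 0, with a median of -0.28, against a median of 0.02 over all 559. In 11 of them the groups overlapped and in 5 all mut libraries lay below all WT libraries, where 6.80% of the 559 features lay below and 3.40% above. Except for the transcript ENST00000458892.1, all of the 16 start between bases 20323179 and 21397292, and 11 are tRNA genes. ENST00000458892.1 starts at base 45110883 and had a log2 fold change of 0.23. None of the 16 lies in the second block, so these values describe only a small part of the segment.

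Of the 65 loci that the authors reconstructed from reads in the segment, 34 passed the filter and 0 were called by edgeR, where 0.170% of the 589 loci tested were called. At an unadjusted p under 0.05 there were 2, both over the same stretch at RN7SL3, and limma called 0. Their median log2 fold change was -0.24, against 0.01 over all loci, and 30 of 34 were below 0. The locus in the second block, which starts at base 35762795, had 0.16 ± 0.34 (SE). Loci overlap the annotated features, so they are not a second set of measurements. Some loci are also nested in one another or hold the same counts, so the 34 are not separate measurements. The 30 of 34 therefore counts some fragments more than once. The small RNA libraries varied far more than the total RNA ones, and mut library 3 stood apart from the other mut libraries.

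Loci over the genes of 7SL RNA and RPPH1, named after their values were seen, had fragments where total RNA counts were 0. The annotation used gives no strand for these genes, so a locus could not be assigned to the sense or the antisense strand, and near-identical copies share fragments. At RPPH1 the longest locus, on the minus strand, had 779, 583 and 1009 FPM (fragments scaled to library depth) in mut libraries, against 853, 823 and 775 FPM in WT libraries, and the groups overlapped. At RN7SL1 the shorter of the nested plus-strand loci had 2618, 2441 and 2422 FPM in mut libraries, against 2739, 2822 and 3150 FPM in WT libraries. All 3 mut libraries lay below WT there, with a log2 fold change of -0.12 ± 0.17 (SE) that was not called.

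At RN7SL2 the longer locus, on the minus strand, had 1892, 1883 and 2579 FPM in mut libraries, against 2126, 2763 and 2406 FPM in WT libraries, with overlapping groups and a log2 fold change of -0.13 ± 0.15 (SE). At RN7SL3 the longer of the nested loci, also on the minus strand, had 73.2, 59.0 and 87.4 FPM in mut libraries, against 120, 116 and 95.6 FPM in WT libraries. Its log2 fold change was -0.53 ± 0.23 (SE), with an unadjusted p of 0.042 and an adjusted p of 0.60 in edgeR's test, which missed the threshold. The small RNA values at RN7SL2 and RN7SL3 lay below 0, and the total RNA values of the same genes, 0.68 and 0.04, above 0. The small RNA value of RN7SL2 and the total RNA value of RN7SL3, 0.04 ± 0.06 (SE), were smaller than their errors. Opposite signs are thus not established in either gene, and the difference between the assays was not tested.

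Most of the tested features were tRNA genes, which cluster close to the RNase A genes and supply threonine, tyrosine, proline and leucine tRNAs. Of the 11 tested tRNA members 10 were below 0, with a median of -0.36, while of the 251 tested tRNA genes elsewhere 130 were below 0, with a median of -0.01. TRT-TGT3-1, a threonine tRNA named here after its value was seen because it alone had an unadjusted p under 0.05, had 34.5, 57.4 and 63.5 FPM in mut libraries, against 103, 66.9 and 95.6 FPM in WT libraries. Its log2 fold change was -0.69 ± 0.27 (SE), with an adjusted p of 0.58 in edgeR's test, which missed the threshold. All 3 mut libraries lay below all WT libraries, as was the case for 5 of the 16 features.

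Summed over all 17 tRNA genes of the segment, mut libraries had 903, 849 and 1171 FPM, against 1301, 1324 and 1318 FPM in WT libraries. The tRNA genes elsewhere summed to 108185, 135421 and 176113 FPM in mut libraries, against 167545, 182790 and 175691 FPM in WT libraries, so the first 2 mut libraries were low there too. As a share of all tRNA fragments, the members made up 0.828%, 0.623% and 0.661% in mut libraries, against 0.770%, 0.719% and 0.745% in WT libraries, and these shares overlapped. The sum of the members was lower in all 3 mut libraries, and their share of tRNA fragments was lower in 2 of them. Several of these tRNA genes have copies elsewhere with the same mature sequence, so a fragment cannot always be given to 1 gene.

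The other tested short RNAs of the segment differed little. SNORD8, which guides methylation of other RNAs, had 515, 517 and 409 FPM in mut libraries, against 634, 564 and 560 FPM in WT libraries, with a log2 fold change of -0.17 ± 0.21 (SE) and an adjusted p of 0.86 in edgeR's test. SNORD9 had 204, 174 and 204 FPM in mut libraries, against 235, 241 and 234 FPM in WT libraries, with -0.19 ± 0.18. In both snoRNAs the mut libraries lay below the WT libraries by less than the test could call. SNORA79B, an H/ACA snoRNA, had 180, 230 and 95.3 FPM in mut libraries, against 163, 152 and 282 FPM in WT libraries, and the groups overlapped. The tested members with the most fragments were the transcripts ENST00000459475.1 and ENST00000458892.1, to which no RefSeq name was matched at a tolerance of 5 bases. The first lies inside SNORD126, a snoRNA gene of the segment at bases 20326441 to 20326539. In both transcripts the groups overlapped too, with log2 fold changes of -0.19 ± 0.21 and 0.23 ± 0.17 (SE).

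**Figure D5:**
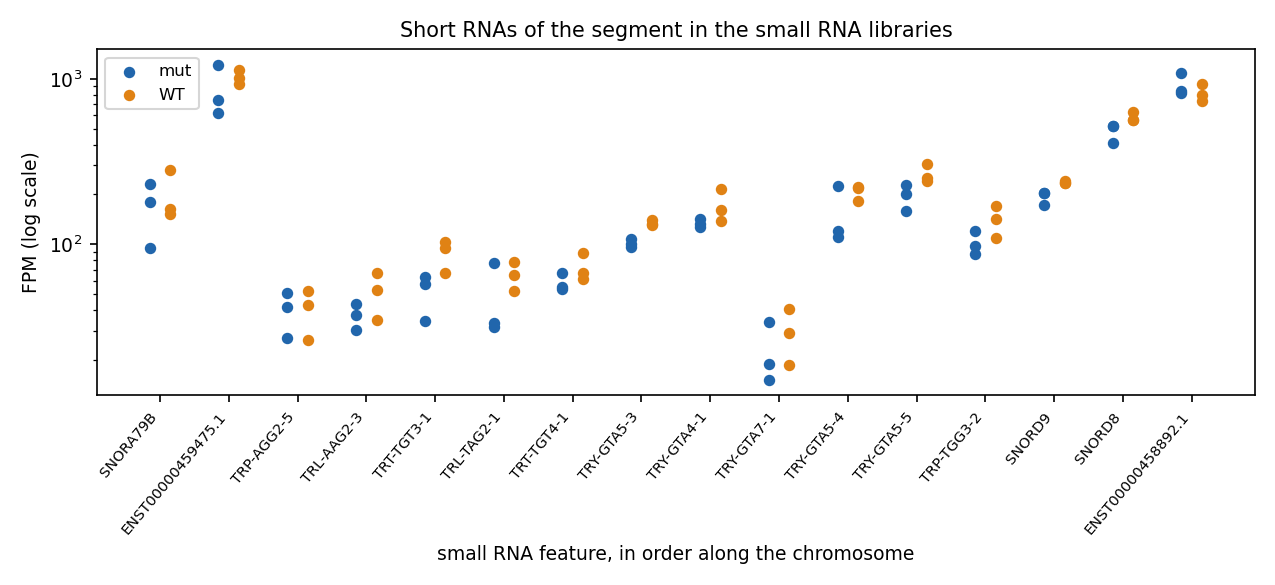
FPM, fragments scaled to library depth (y axis, log scale) in each small RNA library for the 16 tested annotated features of the segment, in order along the chromosome (x axis), mut in blue left of WT in orange. Features to which no RefSeq name was matched carry the transcript identifier of the deposited files. The groups overlap in 11 of the 16 features, and in the other 5 all mut points lie below the WT points.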

How the data were processed

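The authors deposited unnormalised read counts per Ensembl gene for total RNA, and fragment counts, an FPM signal and FPKM per feature for small RNA. The submitters' processing notes name, with no roles, hg38, STAR 2.4.0, HTSeq 0.6.1, SAMtools 1.2-10, DESeq2 1.8.2, CASAVA 1.8.2 and FastQC 0.11.3. Whether counting used strand, and on which annotation, is not given in the sources used here. Values of overlapping and antisense genes are therefore uncertain. Rows naming no gene held 57.8% to 63.2% of reads per total RNA library and were left out. Small RNA totals were 493314 to 1219718 fragments.

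RefSeq placed 39378 of 60483 genes by symbol. Of the 14409 genes that passed filterByExpr, 13420 were placed and 989 were not, and unplaced genes belong to neither set.

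The mut and WT libraries were compared in edgeR 4.0.16 (R 4.3.3; quasi-likelihood, TMM, Benjamini-Hochberg over all features) and small RNA also in limma 3.58.1. The code was tested on simulated data. DESeq2 1.42.0 and other settings were alternatives.

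The segment, the gene lists and the rule for named genes were chosen with earlier results of these data known. The rule names the 10 members with the most reads, the 10 lowest and 5 highest called protein-coding members, the 3 tested genes on each side of the limit, examples from the lists, partner genes, DIS3L2 and the 6 small RNA features with the most fragments. Some genes the rule names are not reported here.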

Additional observations from a re-analysis of the deposited data

How the results depend on the processing

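With 1 library left out at a time, the members called lower numbered 66 to 78 and those called higher 7 to 10, and their median log2 fold change was -0.33 to -0.28. For the rest of chromosome 14 the ranges were 40 to 64 lower, 9 to 15 higher and a median of -0.087 to -0.038. DESeq2 called 38 genes of the rest lower. With a limit of 55 Mb the members' median was -0.26, and without a filter on low counts it was -0.36. Among protein-coding members 3 were called higher. With each library's trend on gene span removed, 87 members were called lower and 7 higher, the median of the rest of the chromosome was -0.033, and RN7SL3 turned to -0.17. The cause of these shifts was not tested.

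The labels state no pairing of libraries by replicate number. Deviations of libraries with the same number correlated at -0.09, -0.07 and 0.03 in total RNA and at 0.20, -0.14 and -0.36 in small RNA. These values show no shared deviation by number, but they cannot exclude that such libraries were prepared together. With the number as a replicate block, 80 members were called lower and 8 higher, with a median of -0.32. No small RNA feature of the segment was called by edgeR with any 1 library left out. The calls of SOS2 and RNU6-8 were lost under some of these settings, SOS2 under DESeq2, the block, the span correction, RLE scaling and no filter, and RNU6-8 under DESeq2 and the span correction. Calls of AJUBA, FBXO33, KLHL28, PRORP, RAB2B and TINF2 were lost in DESeq2 and with at least 1 library left out, that of SOS2 with any library left out but WT replicate 2, and HNRNPC was called lower, at -0.13, without mut replicate 1. Depth limits genes such as NPAS3, with 3 to 19 reads per library.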
